A study of Mus musculus with 5 samples.

Results

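The 10 genes described here hold the G1 engine of the cell cycle: the D-type cyclins Ccnd1, Ccnd2 and Ccnd3, the E-type cyclins Ccne1 and Ccne2, the kinases Cdk4 and Cdk6, and the kinase inhibitors Cdkn1a (p21), Cdkn1b (p27) and Cdkn2c (p18). They were taken by gene symbol. All 10 were found, among 38166 features of the KSL tables and 34315 features of the granulocyte tables. The rule used no expression value, but earlier results of these data were known when the genes were chosen. The study measured polyA-selected RNA of mouse bone marrow cells by sequencing, in 2 separate experiments. In the first, Gr1+ granulocytes of 12-month-old C57BL/6 mice gave 2 libraries, which are technical replicates of 1 biological replicate, so that n = 1. In the second, Sca-1+ C57BL/6 progenitors from mice injected with 5-FU, a drug that kills cycling cells, were transduced with a GFP+ retrovirus and cultured for 2 days with 10 ng/ml mSCF and 100 ng/ml mTPO, stem cell factor and thrombopoietin. The sorted c-Kit+Sca-1+Lin-GFP+ (KSL) cells gave 1 library each for Control-KD, LncHSC-1-KD and LncHSC-2-KD, knockdowns of long non-coding RNAs. Every KSL group therefore carries the 5-FU injection, the retrovirus and the culture with both cytokines, and the granulocytes carry none of them.

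D-type cyclins are made in response to mitogens and bind CDK4 or CDK6, which begin to phosphorylate the retinoblastoma protein and so release E2F factors. E-type cyclins, made under E2F control, bind CDK2 and carry the cell into S phase. CDKN1A and CDKN1B bind cyclin-CDK complexes and restrain CDK2, whereas CDKN2C belongs to the INK4 family, which binds CDK4 and CDK6 themselves. In the bone marrow these proteins set the balance between quiescent stem cells, dividing progenitors and mature cells that have left the cycle. Mature granulocytes are of the last kind, but whether all Gr1+ cells measured here had left the cycle was not tested.

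The bases just upstream of the transcript start are shown for 5 of these genes: both kinases, the inhibitors Cdkn1a and Cdkn1b, and Ccnd3, the cyclin with the highest granulocyte level. RefSeq windows (build GRCm38.p6) matched 7 of the 10 genes, in 10 windows. Each sequence is the 250 bases before the start, 5′ to 3′ on the gene's strand. Capitals mark a motif found on either strand: the E-box CACGTG, read by MYC and related factors, in Cdk4 and Cdk6, the p53 decamer in Cdkn1a, a well-known p53 target, and the GC box GGGCGG, read by SP1-type factors, in Cdkn1b and Ccnd3. Each sequence carries the marks of 1 motif.
Cdk4, chr10:127063285-127063534, plus strand: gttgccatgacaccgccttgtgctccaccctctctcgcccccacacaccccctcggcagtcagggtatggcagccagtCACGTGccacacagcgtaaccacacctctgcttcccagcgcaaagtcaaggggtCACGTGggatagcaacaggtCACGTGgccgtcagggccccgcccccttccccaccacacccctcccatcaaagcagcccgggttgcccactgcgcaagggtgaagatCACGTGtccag
Cdk6, chr5:3343643-3343892, plus strand: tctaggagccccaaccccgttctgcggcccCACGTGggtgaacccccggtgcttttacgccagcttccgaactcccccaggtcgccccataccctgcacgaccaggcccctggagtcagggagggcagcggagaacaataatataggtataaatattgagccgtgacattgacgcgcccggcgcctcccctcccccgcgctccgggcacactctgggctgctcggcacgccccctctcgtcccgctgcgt
Cdkn1a, chr17:29090729-29090978, plus strand: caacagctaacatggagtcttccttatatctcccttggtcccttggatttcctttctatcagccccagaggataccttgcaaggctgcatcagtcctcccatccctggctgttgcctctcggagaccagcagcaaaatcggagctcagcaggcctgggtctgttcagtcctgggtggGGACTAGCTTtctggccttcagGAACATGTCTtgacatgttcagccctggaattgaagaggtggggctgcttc
Cdkn1b, chr6:134920151-134920400, plus strand: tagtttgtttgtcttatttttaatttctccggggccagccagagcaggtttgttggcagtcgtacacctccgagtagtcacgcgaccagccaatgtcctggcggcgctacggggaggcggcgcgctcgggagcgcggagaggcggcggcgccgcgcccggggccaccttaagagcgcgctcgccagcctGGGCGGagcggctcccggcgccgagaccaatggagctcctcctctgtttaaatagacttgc
Ccnd3 (the window of its downstream start), chr17:47593217-47593466, plus strand: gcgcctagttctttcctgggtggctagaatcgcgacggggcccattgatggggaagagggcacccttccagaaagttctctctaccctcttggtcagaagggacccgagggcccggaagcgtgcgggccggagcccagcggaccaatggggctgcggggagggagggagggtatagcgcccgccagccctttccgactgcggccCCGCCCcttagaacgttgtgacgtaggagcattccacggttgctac

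The Cdk4 window held 4 E-boxes, starting 172, 118, 98 and 11 bases before the transcript start. Of 32851 windows of this length, 6.02% held at least 1 E-box and 7 windows (0.0213%) held 4 or more. The same window also held a GC box, not marked, 80 bases before the start. Cdk6 had 1 E-box, 220 bases before its start. The upstream window of Cdkn1a had p53 decamers at 73 and 51 bases before the start, where 7.13% of all windows held at least 1 and 0.259% held at least 2. The window of the other Cdkn1a start (chr17:29093519-29093768) held no p53 decamer and had GC boxes at 104 and 46 bases. The GC box lay 61 bases before the start in Cdkn1b and 46 bases before it in the Ccnd3 window shown. The window of the other, upstream Ccnd3 start (chr17:47504801-47505050) held GC boxes at 152 and 18 bases. Of all windows, 32.7% held at least 1 GC box. These are matches of letters and not measured binding.

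Depth was estimated at about 21018400 reads for Control-KD, 24145600 for LncHSC-1-KD and 19934900 for LncHSC-2-KD. The granulocyte tables hold scaled values that sum to nearly the same total in both libraries, so their read depth is unknown. All 8 KSL markers, among them Kit, Ly6a and Cd34, were at 5 FPKM (fragments per kilobase of transcript, scaled to library size) or more in each KSL library, and all 9 granulocyte markers were so in granulocytes, where 1 of the 8 KSL markers, Kit, was (5.64 FPKM). None of the 8 B lineage or 4 megakaryocyte markers reached 5 FPKM in granulocytes. All 6 monocyte and dendritic markers, all 4 primary granule markers, 2 of 5 T and NK markers and 1 of 4 erythroid markers did. Among the KSL libraries, LncHSC-1-KD stood apart in markers of other cells: summed B lineage FPKM was 74.1, against 42.5 in Control-KD and 44.5 in LncHSC-2-KD, with 7 of 8 genes above Control-KD and Igll1 at 0 in Control-KD. Summed monocyte and dendritic FPKM was 235 against 126 and 138, with 6 of 6 genes above Control-KD, led by Cd74 (143 against 73.7 FPKM in Control-KD), while Csf1r was at 2.31 in LncHSC-1-KD and 2.24 in Control-KD. Megakaryocyte markers summed to 497 FPKM in Control-KD, 638 in LncHSC-1-KD and 614 in LncHSC-2-KD. The sums over the granulocyte list (119, 110 and 106), the erythroid list (105, 116 and 88.7), the primary granule list (219.7, 219.7 and 225) and the T and NK list (61.0, 61.8 and 56.4) are given in the same order. Ly6g and Cd3d were at 0 in LncHSC-2-KD, and Cd3e was at 0 in both knockdown libraries. The part of these cells in the differences below was not tested, and in bulk RNA fewer cells of a type and less RNA per cell cannot be told apart. No feature in the tables bears the name of either long non-coding RNA, so the knockdowns themselves were not checked.

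**Figure D1:**
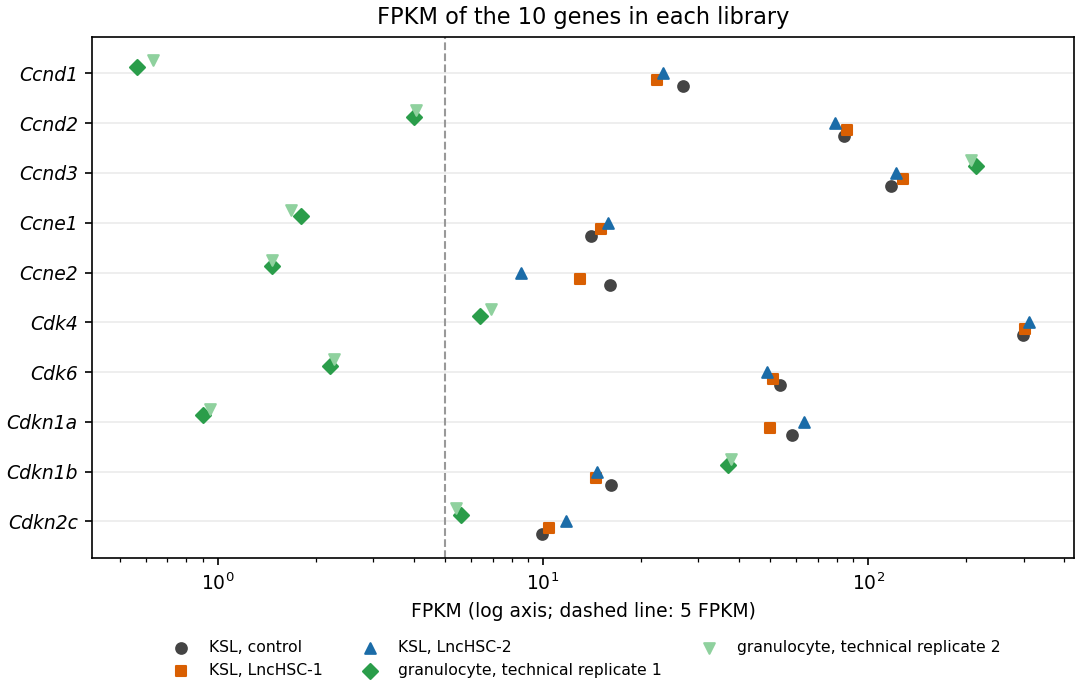
FPKM of each of the 10 genes (log axis) in the 3 KSL libraries and the 2 granulocyte libraries, 1 point per library. The KSL points of a gene lie close together except for Ccne2. The granulocyte points lie above the KSL points for Ccnd3 and Cdkn1b and below them for the other 8 genes. The same was not counted over all features, and the tables of both experiments were scaled separately.

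In KSL cells all 10 genes were at 5 FPKM or more, with Cdk4, the partner kinase of D-type cyclins, highest in each library and the INK4 inhibitor Cdkn2c lowest of the 10 in Control-KD and LncHSC-1-KD. Levels lay in steps: the ranges over the 3 libraries of Cdk4 (298 to 312 FPKM), Ccnd3 (117 to 128) and Ccnd2 (78.8 to 86.1) did not overlap each other or those of any gene below them. Cdkn1a (49.7 to 63.6) and Cdk6 (48.9 to 53.5) overlapped, and their order turned in LncHSC-1-KD. Ccnd1 (22.5 to 27.0) stood alone below them. Cdkn1b (14.5 to 16.1), Ccne1 (14.0 to 15.8) and Ccne2 (8.56 to 16.1) overlapped, as did Ccne2 and Cdkn2c (9.94 to 11.7). Cdk4 ranked between 150 and 156 of all 38166 features in the KSL libraries. In granulocytes 4 of the 10 genes were at 5 FPKM or more (Ccnd3, Cdkn1b, Cdk4 and Cdkn2c), as were 17.7% of all granulocyte features, beside 23.9% of all features in Control-KD. FPKM values of both experiments are listed together and no fold is drawn between them, because the tables were scaled separately and rest on different gene models.

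Of the D-type cyclins, Ccnd3 made up the larger part of the family in every library, and close to all of it in granulocytes. Ccnd3 (mm9 chr17:47642000-47736637, plus strand) was at 117 FPKM in Control-KD, 128 in LncHSC-1-KD, 121 in LncHSC-2-KD, and 214 and 207 in the granulocyte libraries. It was thus the 1 cyclin of the 5 whose granulocyte values lay above all KSL values, and it ranked at place 201 of the granulocyte features. Ccnd2 (chr6:127075727-127101066, minus strand), the D-type cyclin tied to growth factor signals in blood progenitors, was at 84.2, 86.1 and 78.8 FPKM in the same order of KSL libraries and at 4.02 and 4.08 in granulocytes. Ccnd1 (chr7:152115836-152125830, minus strand), a mitogen-induced D-type cyclin, was at 27.0, 22.5 and 23.4 FPKM and at 0.564 and 0.633 in granulocytes. Ccnd1 was highest in Control-KD, and its granulocyte values, like those of Ccnd2, lay far below all KSL values. As a share of the family's summed FPKM, Ccnd3 took 51.3% in Control-KD, 54.1% in LncHSC-1-KD, 54.2% in LncHSC-2-KD, and 97.9% and 97.8% in granulocytes. Ccnd2 took 36.9%, 36.4% and 35.3% in the KSL libraries and 1.84% and 1.92% in granulocytes, and Ccnd1 took the rest.

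The E-type cyclins activate CDK2, and 1 of them, Ccne2, differed most of the 10 genes among KSL libraries. Ccne1 (chr7:38883003-38892509, minus strand) was at 14.0 FPKM in Control-KD, 15.1 in LncHSC-1-KD, 15.8 in LncHSC-2-KD, and 1.80 and 1.68 in granulocytes. Ccne2 (chr4:11118501-11131926, plus strand) was at 16.1, 13.0 and 8.56 FPKM, and at 1.47 in both granulocyte libraries. Ccne2 was highest in Control-KD and lowest in LncHSC-2-KD, a ratio of highest to lowest of 1.88. The next of the 10 genes, Cdkn1a, had 1.28, while Ccne1 had 1.13 and Cdk4 had 1.05. Ccne2 made up 53.5% of the summed E-type cyclin FPKM in Control-KD, 46.2% in LncHSC-1-KD and 35.1% in LncHSC-2-KD. Ccne2 thus held the larger share in Control-KD and Ccne1 in both knockdown libraries. In granulocytes Ccne2 took 45.0% and 46.8%.

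Of the kinases, Cdk4 (chr10:126500659-126504338, plus strand) was at 298 FPKM in Control-KD, 303 in LncHSC-1-KD, 312 in LncHSC-2-KD, and 6.41 and 6.94 in granulocytes. Cdk6 (chr5:3344312-3522225, plus strand), the CDK4 relative that prevails in many blood cells, was at 53.5, 51.0 and 48.9 FPKM, and at 2.22 and 2.27 in granulocytes. Both kinases were far lower in the granulocyte tables than in any KSL library. Cdk4 took 84.8%, 85.6% and 86.5% of the summed FPKM of this pair in the KSL libraries and 74.3% and 75.3% in granulocytes. Cdk2, the kinase of the E-type cyclins, named here for that role, was at 46.9, 43.0 and 46.1 FPKM in the KSL libraries and at 25.6 FPKM in granulocytes (mean of both libraries), above Cdk4 and Cdk6 there.

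The order of the inhibitors differed between the cell types. Cdkn1a (chr17:29227931-29237667, plus strand) was at 58.1 FPKM in Control-KD, 49.7 in LncHSC-1-KD, 63.6 in LncHSC-2-KD, and 0.900 and 0.950 in granulocytes. By FPKM Cdkn1a was lowest in LncHSC-1-KD and highest in LncHSC-2-KD, on either side of Control-KD. Its side in LncHSC-2-KD depends on the scaling, as given below. Cdkn1b (chr6:134870419-134875543, plus strand), an inhibitor linked to exit from the cycle, was at 16.1, 14.5 and 14.6 FPKM, and at 37.0 and 37.9 in granulocytes, above all KSL values. Cdkn2c (chr4:109333481-109337977, minus strand) was at 9.94, 10.4 and 11.7 FPKM and at 5.58 and 5.42 in granulocytes. Among the 3 inhibitors Cdkn1a took 69.0%, 66.6% and 70.7% of the summed FPKM in the KSL libraries and 2.07% and 2.15% in granulocytes. Cdkn1b took 19.2%, 19.4% and 16.3% in KSL cells and 85.1% and 85.6% in granulocytes.

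**Figure D2:**
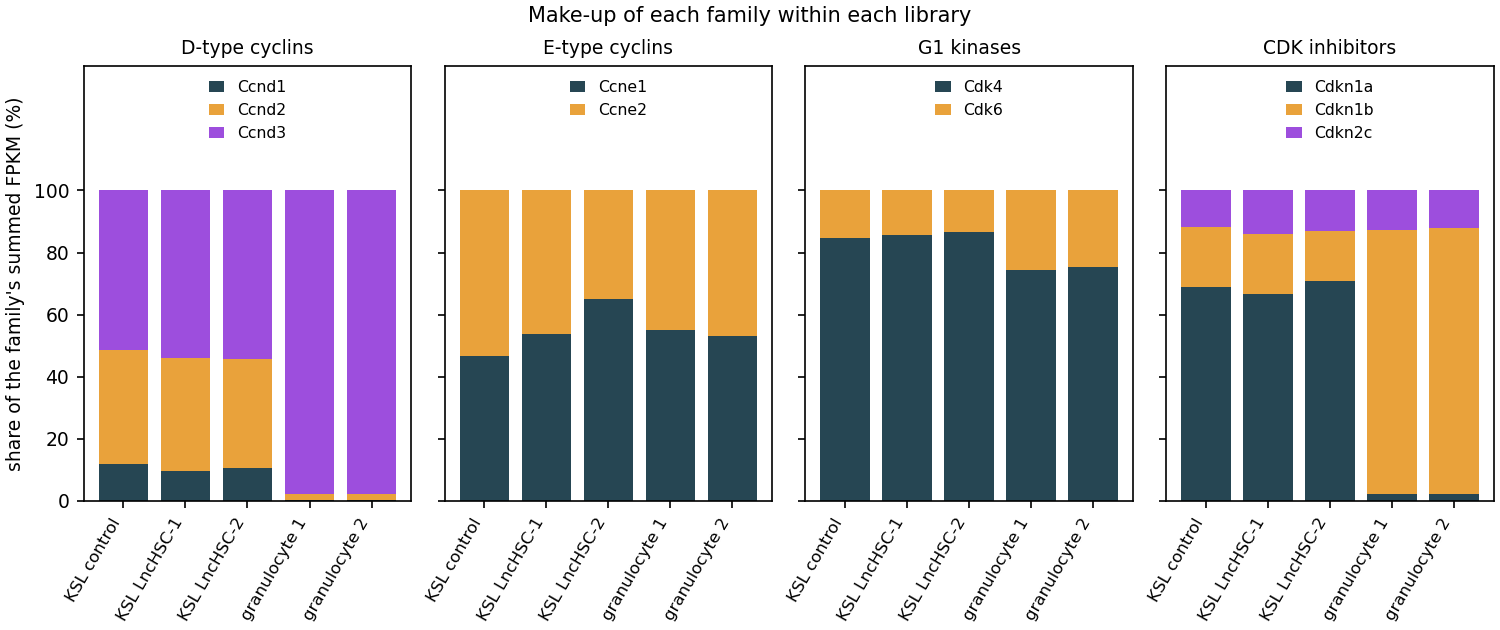
Share of each family's summed FPKM (percent) held by each member, 1 stacked bar per library, for the D-type cyclins, E-type cyclins, G1 kinases and inhibitors. The granulocyte bars are nearly all Ccnd3 (97.9% and 97.8%) and mostly Cdkn1b (85.1% and 85.6%), and Ccne2 takes 53.5% of the Control-KD bar and 35.1% of the LncHSC-2-KD bar.

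The knockdown libraries were then compared with Control-KD and with each other, on the log2 scale of FPKM + 1, over the 9153 features with a mean of at least 5 FPKM in the 3 KSL libraries. All 10 genes passed that limit. With 1 library per group there is no replicate check and no p-value. The interval beside each difference is an exact 95% binomial interval of the estimated reads, without a pseudocount, and covers counting error only. A difference was called by size where it passed 1.5-fold on the FPKM + 1 scale.

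In LncHSC-1-KD the 10 genes stayed near Control-KD. Counting intervals lay below 0 for Ccne2, Ccnd1, Cdkn1a and Cdkn1b and above 0 for Ccnd3. Reads of Ccne2 and Ccnd3 may be shared with neighbours, as described below, which their intervals do not cover. None of the 10 passed 1.5-fold, where 2.23% of all features did. For 5 of the 10 the counting interval left out 0 (1 higher, 4 lower), beside 39.7% of all features. The 10 genes were more deeply counted than most, with a median of 2535 estimated reads in Control-KD against 1226 over all 9153 features. Ccne2 differed by −0.29 (interval −0.43 to −0.19), Ccnd1 by −0.25 (−0.35 to −0.18), and Cdkn1a by −0.22 (−0.30 to −0.15). These were the 3 lowest values of the 10, and counted from the lowest of the 9153 features Ccne2 stood at place 261 and Ccnd1 at place 356. Cdkn1b was at −0.14 (−0.28 to −0.02) and Ccnd3 at 0.13 (0.07 to 0.18). The upper end for Cdkn1b lay about as far from 0 as the median of all features, −0.02. The intervals of Ccnd2 (0.03, −0.00 to 0.07), Cdk4 (0.02, −0.02 to 0.07), Cdk6 (−0.07, −0.14 to 0.00), Ccne1 (0.10, −0.04 to 0.26) and Cdkn2c (0.06, −0.18 to 0.32) held 0. The median of the 10 was −0.02, as it was over all features, with 5 genes higher and 5 lower.

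In LncHSC-2-KD Ccne2 was the gene of the 10 that stood out, at 8.56 against 16.1 FPKM. It was the 1 gene of the 10 past 1.5-fold, beside 1.77% of all features, with a log2 difference of −0.84. Without a pseudocount it was 1.88-fold lower (counting interval 1.70 to 2.08), and counted from the lowest of the 9153 features it stood at place 39. The reads of Ccne2 may be shared with a neighbour, as described below, and the interval does not cover that. Ccne1, which codes for the other E-type cyclin, differed by 0.16 (0.01 to 0.33), in the opposite direction. Counting intervals left out 0 for 8 of the 10 genes (3 higher, 5 lower), beside 26.1% of all features. Apart from Ccne2 these were small: Ccnd1 −0.20 (−0.29 to −0.12), Cdkn1b −0.13 (−0.28 to −0.00), Cdk6 −0.13 (−0.20 to −0.05), Ccnd2 −0.09 (−0.13 to −0.06), Cdk4 0.07 (0.02 to 0.11) and Cdkn1a 0.13 (0.05 to 0.21). The intervals of Ccnd3 (0.05, −0.01 to 0.10) and Cdkn2c (0.22, −0.02 to 0.50) held 0. Ccnd1 stood at place 391 from the lowest of the 9153 features and Cdkn2c at place 438 from the highest. The median of the 10 was −0.02 beside 0.00 over all features, again with 5 higher and 5 lower. That split depends on the scaling: from the deposited count columns, which shift all features by a median of −0.14 in this comparison, 2 genes were higher and 8 lower. Cdkn1a (−0.02), Cdk4 (−0.08) and Ccnd3 (−0.10) changed sign there. With the count columns centred they were again above 0.

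Between the knockdowns, Ccne2 was higher and Cdkn1a lower in LncHSC-1-KD than in LncHSC-2-KD. None of the 10 passed 1.5-fold on the FPKM + 1 scale, where 2.31% of all features did. Intervals left out 0 for 5 genes (3 higher, 2 lower), beside 36.1% of all features. Ccne2 differed by 0.55 with the pseudocount and by 0.60 without it (0.45 to 0.75). Cdkn1a differed by −0.35 (−0.43 to −0.28), at 49.7 against 63.6 FPKM. Ccnd2 (0.13, 0.09 to 0.16), Ccnd3 (0.08, 0.03 to 0.13) and Cdk4 (−0.04, −0.08 to −0.00) followed at smaller sizes. The median of the 10 was −0.03, as it was over all features, with 4 genes higher and 6 lower, and from the deposited count columns, with a shift of 0.12 over all features, 8 were higher and 2 lower. Both comparisons with Control-KD share that library, so values that point the same way in both, such as the −0.25 and −0.20 of Ccnd1, are not independent of each other.

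**Figure D3:**
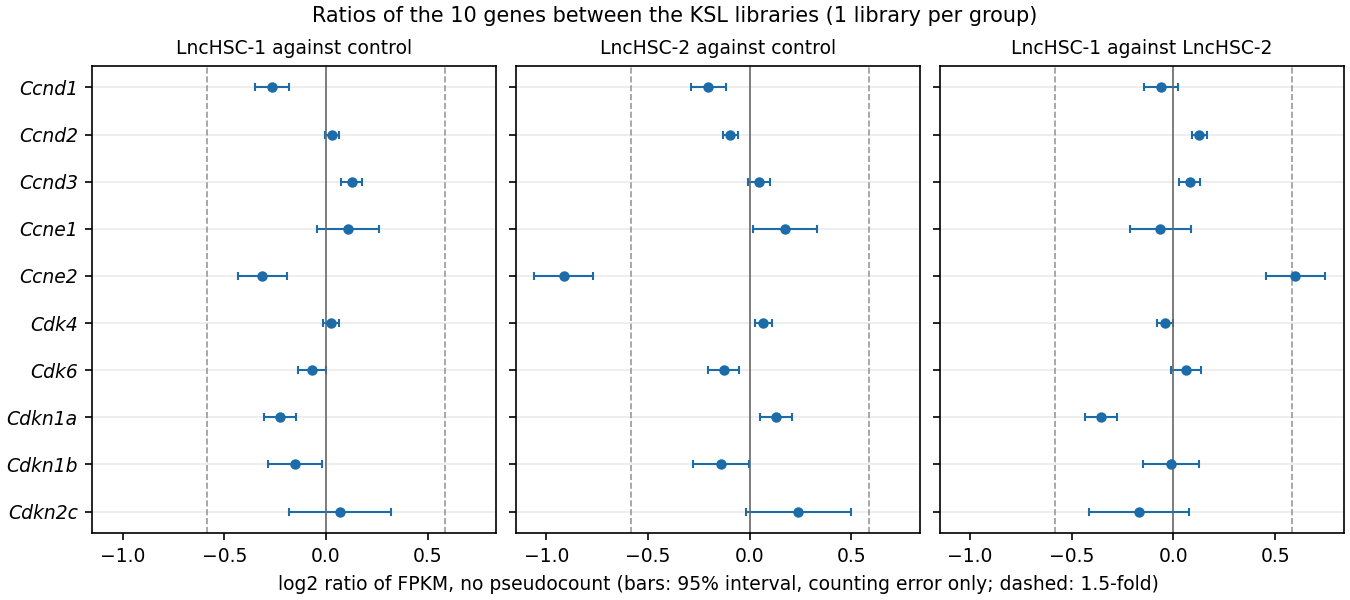
Log2 difference of FPKM without a pseudocount for each of the 10 genes in the comparisons of KSL libraries (1 library per group), with the 95% counting interval of the reads as a bar and 1.5-fold as dashed lines. Ccne2 lies past the dashed line in LncHSC-2-KD against Control-KD (−0.91), and on this scale just past it in LncHSC-1-KD against LncHSC-2-KD (0.60).

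**Figure D4:**
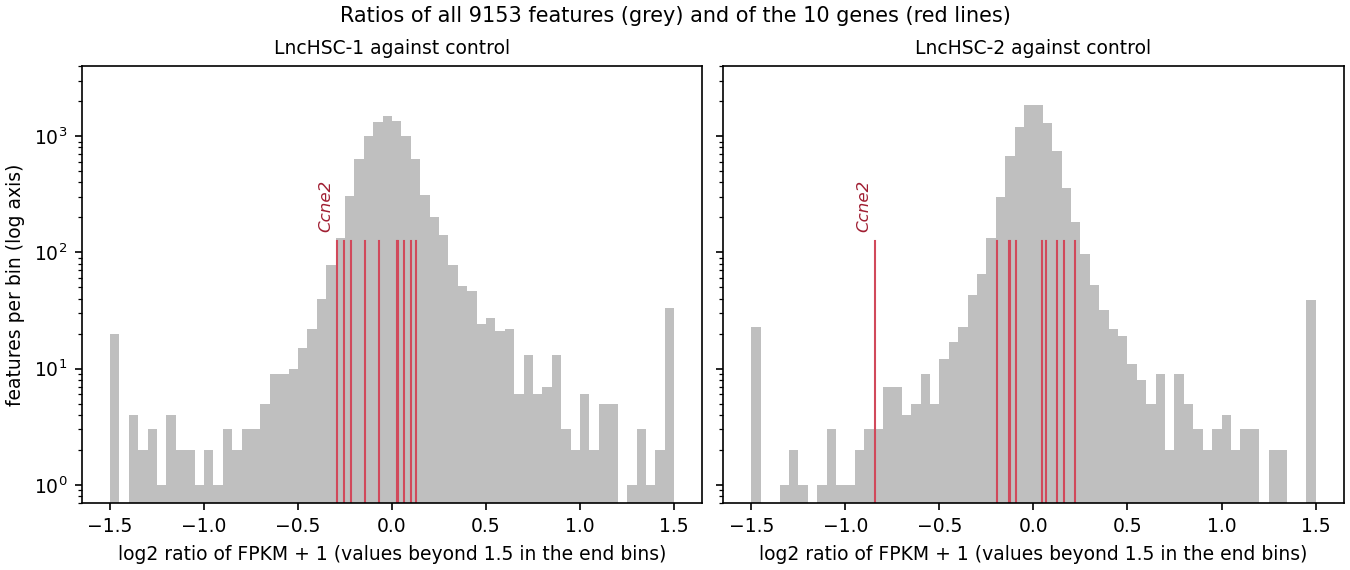
Number of features per bin of log2 difference (log axis) for all 9153 features in grey, with the 10 genes as red lines, for LncHSC-1-KD and LncHSC-2-KD against Control-KD. The line farthest out is Ccne2 in LncHSC-2-KD, at −0.84, and the other lines lie between −0.29 and 0.22.

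Reads of Ccne2 may be shared with those of a neighbour. In mm9 the 3′ part of Ccne2 overlaps Ints8, an Integrator complex gene on the other strand, over 5622 bases of span, and in the GENCODE M21 models (GRCm38) 609 exonic bases, 17.4% of those of Ccne2, are shared. The sources used here do not say whether strand was used in counting. Estimated reads of Ccne2 were 1166.7 in Control-KD, 1094.2 in LncHSC-1-KD and 585.4 in LncHSC-2-KD, not whole numbers within 0.1 read, whereas the sum with Ints8 was whole in all 3 libraries (2854, 2908 and 2210). Values of this kind arise where the reads of a locus are divided in parts between overlapping genes, but the sources used here do not state that step. Ints8 itself was at 17.8, 17.2 and 18.6 FPKM, and its difference in LncHSC-2-KD was 0.06 (−0.04 to 0.16). The summed reads of both genes, an alternative added after seeing the data, were lower in LncHSC-2-KD by a log2 difference of −0.29 (−0.37 to −0.21), and in LncHSC-1-KD by −0.19 (−0.27 to −0.12), and differed by 0.09 (0.01 to 0.17) between LncHSC-1-KD and LncHSC-2-KD. Ints8 held 1687 of the 2854 summed reads in Control-KD, so the sum moves less than Ccne2 by its make-up, and Ccne2 itself was not recounted under another division. Ccnd3 and its neighbour Bysl, which codes for a ribosome biogenesis factor and lies on the other strand, also had whole reads as a sum and not singly, and their summed reads differed by 0.15 (0.10 to 0.19) in LncHSC-1-KD and by 0.04 (−0.01 to 0.09) in LncHSC-2-KD. The other 8 of the 10 genes had whole reads in every KSL library. Counting intervals of Ccne2 and Ccnd3 take their values as plain counts and do not cover the error of such a division. GENCODE M21 exons of Cdk4 also share 641 bases with Tspan31 (19.7% of the exonic bases of Cdk4), and those of Ccnd1 share 1100 bases with LTO1 (23.4%), both on the other strand.

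The genes with the pattern most like that of Ccne2 were found by the Euclidean distance over both log2 differences against Control-KD, which rests on 3 libraries. They were Eif3s6-ps2 (distance 0.184), Ctdspl2 (0.194), Dnajb9 (0.265), Cenpj (0.273) and Mrps21 (0.305). Eif3s6-ps2, a pseudogene by its name whose reads may be shared with its parent gene, was at 24.8, 20.6 and 15.3 FPKM in Control-KD, LncHSC-1-KD and LncHSC-2-KD. Cenpj, a centriole gene, was at 7.47, 5.86 and 4.72 FPKM.

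Lists of other genes of the pathway were described by their medians and counts, beside all 9153 features, of which 56.1% were lower in LncHSC-1-KD and 47.9% in LncHSC-2-KD than in Control-KD. Of 35 other G1/S regulators, such as E2F factors, pocket proteins and the SCF-SKP2 ligase, 34 were found and 27 passed the limit on FPKM. Their median was −0.06 in LncHSC-1-KD, with 5 higher and 22 lower, and −0.03 in LncHSC-2-KD, with 8 higher and 19 lower, and none passed 1.5-fold. Skp1a, an SCF ligase subunit, was at −0.30 and −0.10 in the 2 knockdown libraries, and E2f5, a repressor E2F, at −0.21 and −0.31. E2f4, another repressor E2F, was at 0.09 and 0.20, and E2f7, an atypical E2F, at 0.14 and 0.18.

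Of 33 symbols listed as S phase targets of E2F, Orc1l had no feature. All 32 features found passed the limit, with a median of −0.10 in LncHSC-1-KD (5 higher, 27 lower) and 0.00 in LncHSC-2-KD (16 higher, 16 lower). The ribonucleotide reductase gene Rrm2 was the 1 gene of this list past 1.5-fold, at 0.84 and 0.77, on the side opposite to most of its list in LncHSC-1-KD. Cdc45, for a replicative helicase factor, was at −0.21 and −0.11. Pcna, the replication clamp and the highest of the list at 278 FPKM in Control-KD, was at −0.21 and 0.04. The count of lower genes in LncHSC-1-KD was 27 under each of the 4 scalings tried. In LncHSC-2-KD the uncentred count columns gave 31 lower, with the shift of all features given above.

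A list of S, G2 and M phase genes, which holds mitotic kinases, CDC25 phosphatases and APC activators beside cyclins and Cdk1, had 15 of 17 genes past the limit, with a median of −0.01 in LncHSC-1-KD (7 higher, 8 lower) and 0.04 in LncHSC-2-KD (11 higher, 4 lower), none past 1.5-fold. The mitotic kinase gene Aurka was at 0.13 and 0.18, Bub1, for a spindle checkpoint kinase, at −0.15 and −0.18, and Ccnf, for cyclin F, at −0.19 and 0.01. The 5 cyclin and CDK genes of this list past the limit, taken apart after their values were seen, were all lower in LncHSC-1-KD: Ccnf, Ccna2 (−0.17, interval −0.22 to −0.13), Ccnb2 (−0.08, −0.16 to −0.01), Ccnb1 (−0.08, −0.16 to −0.00) and Cdk1 (−0.06, −0.12 to 0.00). In LncHSC-2-KD they lay between −0.03 (Ccna2) and 0.07 (Cdk1). Uncentred count columns turned the LncHSC-2-KD split to 1 higher and 14 lower. Of 15 other cyclins, 12 passed, and all 12 were lower in LncHSC-1-KD (median −0.11) under each of the 4 scalings. Intervals lay below 0 for 7 of these 12, beside 2276 of all 9153 features. In LncHSC-2-KD 3 of the 12 were higher and 9 lower (median −0.02). The p53 target Ccng1, for cyclin G1, was lowest of them in both, at −0.28 and −0.22, while Ccnj was at −0.02 and −0.13. Of 19 other CDKs and CDK-associated genes, 17 passed, with medians of 0.01 in both comparisons. Cdk8, for the Mediator kinase, was at 0.06 and 0.39, Cdk2ap2, for a CDK2-associated protein, at 0.22 and 0.20, and Cdk17 at −0.24 and −0.14.

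Of 21 genes listed as p53 targets, 18 passed the limit, and none passed 1.5-fold. The list holds Cdkn1a, Ccng1 and Trp53 itself. Its medians were 0.01 in LncHSC-1-KD (10 higher, 8 lower) and −0.01 in LncHSC-2-KD (8 higher, 10 lower). Bbc3, for the BH3-only protein PUMA, was at 0.27 and 0.38, Btg2, for an antiproliferative protein, at 0.30 and −0.02, and Polk, for a translesion polymerase, at −0.31 and −0.12. Cdkn1a, at −0.22 and 0.13, stood in this list among genes of both signs in each library. Of 22 quiescence and FoxO genes, a list that also holds Myc and Mycn, 13 passed. Their medians were 0.05 (8 higher, 5 lower) and 0.01 (7 higher, 6 lower). Egr1, an immediate early factor, was the highest of these at 0.47 and 0.27. Txnip, an inhibitor of glucose uptake and thioredoxin, was at 0.16 and 0.23, Ccng2 at −0.22 and 0.09, and the homeobox gene Meis1 at −0.09 and −0.16. B lineage and monocyte and dendritic markers were higher in LncHSC-1-KD, with the sums given above, and their part in these list values was not tested.

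**Figure D5:**
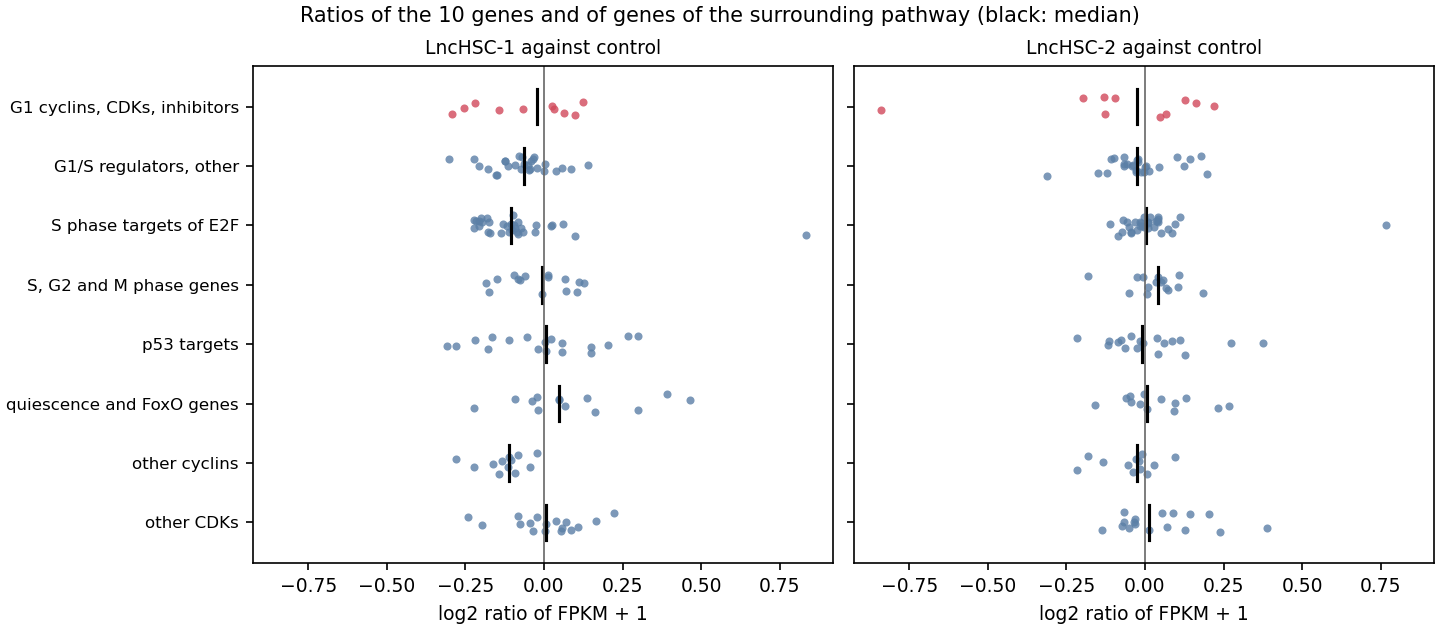
Log2 difference of FPKM + 1 against Control-KD for each gene of each list, 1 point per gene, with the list's median as a bar, for both knockdown libraries. Medians lie between −0.11 and 0.05, and Rrm2 (0.84 and 0.77) and Ccne2 (−0.84 in LncHSC-2-KD) lie apart.

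In the granulocyte tables, 33 of the 156 genes of these lists were listed above all 3 KSL libraries and 121 below all 3. The limit given above holds, that the tables were scaled separately. The same counts were not made over all features, so those given here are not read as particular to these lists. The median FPKM of the 10 G1 genes was 40.2 in Control-KD and 3.15 in granulocytes. For the S phase targets of E2F it was 54.5 and 3.97, with all 32 genes lower in granulocytes and 12 of them at 5 FPKM or more there. For the other G1/S regulators it was 13.9 and 3.91, with 4 genes above all KSL libraries and 29 below. The S, G2 and M phase genes had medians of 30.4 and 5.76 FPKM (1 above, 15 below) and the p53 targets 11.8 and 5.75 (7 above, 14 below). The other cyclins, at 24.3 and 12.5 FPKM (6 above, 9 below), and the other CDKs, at 14.1 and 6.54 (4 above, 15 below), had higher granulocyte medians than the S phase list. The quiescence and FoxO list, which also holds Myc and Mycn, was the list with more genes above (13) than below (9). Its medians were 5.77 and 6.57 FPKM. Single genes named after their values were seen show this range. Btg2 was at 6.02 FPKM in Control-KD and 107 in granulocytes, and E2f2, for an activator E2F, at 4.15 and 53.01. Myc, which codes for the MYC factor, was at 139, 137 and 135 FPKM in the KSL libraries and at 1.15 in granulocytes.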

How the data were processed

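The authors deposited 1 table per library, on mm9 per the submitters' processing notes, which list DESeq as well. Aligner, read counter and gene annotation were not given in the sources used here. FPKM values were deposited in all tables. The deposited count columns of the KSL tables hold a signal whose values look like reads scaled by a factor that differed between libraries, a step the sources do not state and on which all estimated reads and intervals rest (1 read is worth 1.08, 0.924 and 1.03 in Control-KD, LncHSC-1-KD and LncHSC-2-KD), and dividing by it gave whole reads within 0.1 for 91.9%, 92.1% and 91.7% of low values. The deposited count columns of granulocytes look like a score, scaled and rounded, from which no reads were recovered.

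From these, log2 differences of FPKM + 1 were computed for features at a mean of at least 5 FPKM. Exact 95% binomial intervals of estimated reads were placed beside them (Python 3.11.15, pandas 2.3.3, NumPy 2.4.6, SciPy 1.17.1). The steps were tried on simulated whole reads with counting error only, without divided reads or spread between cultures. Intervals cover counting error only. With 1 library per group no test was made. The genes and lists were chosen with earlier results of these data known. Named beside the 10 genes are up to 4 of each list (the highest and the lowest difference in each knockdown, then the highest level in Control-KD) and the 5 nearest to Ccne2. A gene that this rule names is not reported here. Cdk2, Myc, E2f2, Cdk1, Ccnb1 and Ccnb2 fall outside the rule. Alternatives were the pseudocount, the limit on FPKM, the size rule, the count columns, centring, whole symbols and each granulocyte library left out. B cell libraries were not analysed here.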

Additional observations from a re-analysis of the deposited data

How the results depend on the processing

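With 1 library per KSL group the depth limits only the counting error, and the spread between cultures is unknown. The deposited count columns in place of FPKM moved the median of the 10 genes to −0.17 in LncHSC-2-KD against Control-KD and to 0.12 in LncHSC-1-KD against LncHSC-2-KD, beside shifts of −0.14 and 0.12 over all features. Past 1.5-fold, LncHSC-2-KD against Control-KD held 0 of the 10 genes where 2-fold was the rule, and LncHSC-1-KD against LncHSC-2-KD held 1 (Ccne2) with a pseudocount of 0.1 FPKM, with the count columns, and with the count columns centred. With a limit of 1 FPKM in place of 5, 8 of the 10 genes passed in granulocytes, and 4 did without either granulocyte library. No paired analysis was possible because each KSL group has 1 library and the granulocyte libraries are technical replicates.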
